A study of Homo sapiens with 12 samples.

Results

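The genes described here are the core of the BCL2 family that acts at the mitochondrion, namely the pore formers BAX, BAK1 and BOK and the pro-survival members BCL2, BCL2L1, BCL2L2, BCL2A1 and MCL1. They were chosen by name, as every gene probe whose gene name in the scanner output is 1 of these 8, which gave 15 of the 41000 gene probes on the array. The design carries 3 probes each for BAX and MCL1, 2 each for BCL2, BCL2L1 and BCL2A1, and 1 each for BAK1, BOK and BCL2L2. Of the 15, 13 passed the filter on dim probes and were tested among 33467 probes under 24251 gene names. The RNA came from HuH-7, an established line of human hepatocellular carcinoma whose p53 is mutant per the labels, so that mutant p53 is shared by all groups. The cells were kept for 24 h with the solvent DMSO, with 28 µM SLMP53-2 or with 42 µM SLMP53-2, a small molecule described as a reactivator of mutant p53, at 2 and 3 times its IC50, the median inhibitory concentration. The titles and the treatment protocol give the higher dose as 42 µM and the treatment field of the same samples gives 48 µM; it is called 42 µM here. Each group had 4 arrays, labelled as biological replicates of this single line, and the question was whether the treated cells changed the transcripts that decide how easily the mitochondrial membrane is breached.

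In the mitochondrial route to apoptosis, BAX and BAK are activated at the outer mitochondrial membrane, oligomerize and open pores through which cytochrome c leaves to assemble the caspase-activating apoptosome. The pro-survival proteins hold BAX and BAK in check by binding their exposed BH3 segment, and BH3-only proteins compete for the same groove and release them. BAX is a long known transcriptional target of wild-type p53, and hepatocytes depend on BCL-XL, the long product of BCL2L1, and on MCL1 for survival. MCL1 protein turns over within hours, so that its transcript and its protein need not move together, and only transcripts were measured here.

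The 12 arrays lay on 5 slides, and 65.0% to 85.0% of the gene spots of an array were well above their background, with 0 saturated spots. The liver identity of the line was borne out by its markers, since 7 of 8 hepatocyte genes were above background on all arrays and the remaining one, TTR, on 11, with albumin at 16.14 on the log2 scale on DMSO. PTPRC, which defines leukocytes, was above background on 0 arrays, while 3 of the 4 leukocyte markers, 1 of 3 endothelial and 1 of 3 fibroblast markers were above it on all 12, with means on DMSO of 5.84 to 7.98, 6.28 to 6.56 and 6.12 to 10.12. One treated array stood apart from its group. Over the 472 probes that were higher and the 413 that were lower at 42 µM, the median difference from DMSO was 0.14 and −0.13 in 28 µM replicate 4, against 0.76 to 0.92 and −0.87 to −0.64 in the other 28 µM arrays. The array was set apart on probes that include those of BCL2L2, BMF, PMAIP1 and BIRC5, so that leaving it out favours larger changes there. Calls gained at 28 µM without it are therefore no independent support. Unless stated, results at 28 µM include this array. They are also given without it for BCL2L2, BMF, PMAIP1, BIRC5, BAX A_23_P346309 and BCL2L1 A_23_P210886.

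The probes are what the array reads in place of a whole transcript, and 4 of them are printed to show which part of each gene was measured. They were taken to lie in coding sequence from general knowledge of the proteins, and no hg19 annotation was used here to place them in an exon or a UTR. They stand 5′ to 3′ as the array design gives them, in lower case, and the capitals in the BAX probe mark a run of 8 G, a repeat known for frameshift mutations in tumours with defective mismatch repair.
BAX A_23_P346311: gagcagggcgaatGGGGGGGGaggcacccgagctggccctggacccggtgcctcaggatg
BCL2L1 A_24_P100130: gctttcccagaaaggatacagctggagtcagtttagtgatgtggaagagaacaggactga
MCL1 A_24_P319635: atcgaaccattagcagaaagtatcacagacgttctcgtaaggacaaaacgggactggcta
BCL2A1 A_23_P152002: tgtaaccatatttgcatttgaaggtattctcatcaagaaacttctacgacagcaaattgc
On hg19, the build of the array's annotation, these lie at chr19:49458958-49459017 on the plus strand and, on the minus strand, at chr20:30309915-30309974, chr1:150550738-150550797 and chr15:80263136-80263195. The BAX probe is 73.3% G and C, the next highest among the 15 after BAX A_23_P346309 at 83.3%, and the 3 others shown are at 46.7%, 45.0% and 35.0%. MCL1 A_24_P319635 is matched to 2 RefSeq transcripts of the gene and leaves out the shorter splice variant, to which the other MCL1 probes are matched as well.

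Values below are normalized log2 intensities, on which a difference of 1 is a doubling of brightness. Quantile normalization gives every array the same distribution, so that a value is relative to the rest of the labelled RNA, and fewer cells and less RNA per cell cannot be told apart. A probe was called when limma, fitted to all 12 arrays, gave it an adjusted p under 0.05 together with a log2 fold change whose size reached 0.6. At 42 µM 1 of the 13 tested member probes was called, BCL2L2, beside 2.64% of all tested probes in either direction and 1.41% upwards, and the other 12 were not. The same probe was the only member to pass at 42 µM with an unadjusted p under 0.05 and the fold limit, beside 5.02% of all probes. At 28 µM 0 of 13 were called beside 0% of all probes, and 1 member, BCL2L2 again, had an unadjusted p under 0.05 with a change past the fold limit, beside 2.38% of all probes. Between the doses 0 of 13 were called beside 0% of all probes, and 0 members against 0.284% of all probes passed at the unadjusted level. The median log2 fold change of the 13 probes was −0.0080 at 28 µM and −0.10 at 42 µM, against −0.012 and −0.013 over all tested probes. In size, regardless of sign, the median was 0.20 and 0.28 for the members and 0.15 and 0.15 for all probes. The members scattered to both sides, with 6 of 13 above 0 at 28 µM and 4 of 13 at 42 µM, where 47.5% of all probes were above 0 at either dose.

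**Figure D1:**
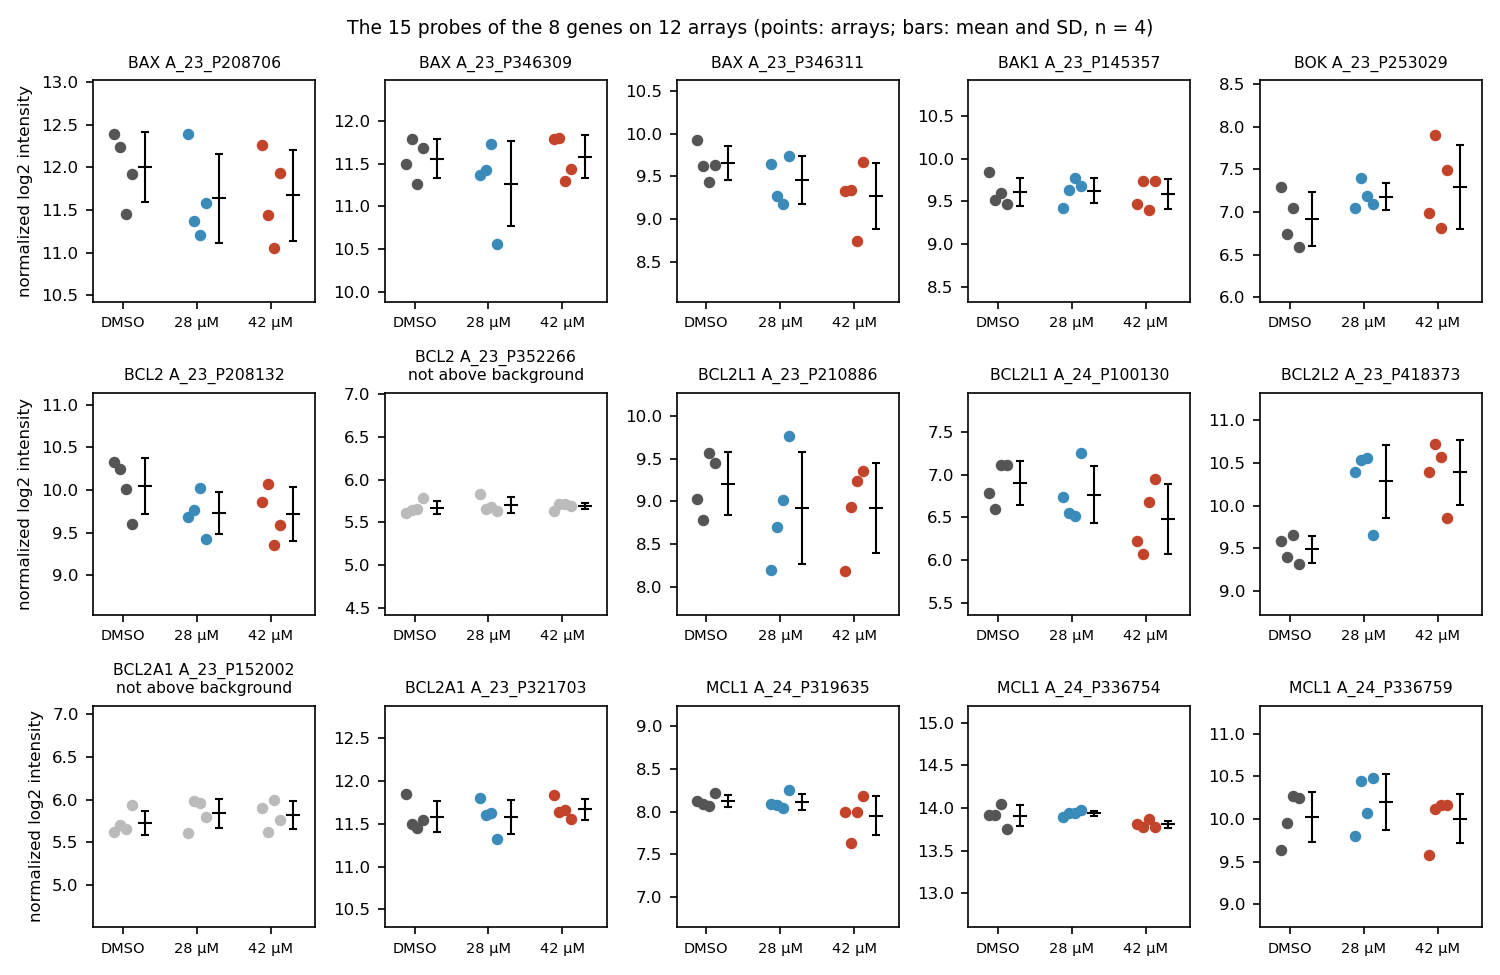
Normalized log2 intensity (y axis, of equal height in every panel) of the 15 member probes on the DMSO, 28 µM and 42 µM arrays; points are single arrays in replicate order, bars the mean and SD of 4 arrays, and grey points mark the 2 probes that were not well above background on any array. The BCL2L2 probe is the one whose 42 µM arrays, 9.86 to 10.72, all lie above the DMSO arrays, 9.32 to 9.66.

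BCL2L2, which encodes the pro-survival protein BCL-W, was the member that rose. On the DMSO arrays its single probe (A_23_P418373, chr14:23780660-23780719, plus strand, hg19) read 9.59, 9.40, 9.66 and 9.32. At 28 µM it read 10.40, 10.53, 10.56 and 9.65, and at 42 µM 10.40, 10.72, 10.57 and 9.86. All 42 µM arrays were thus above all DMSO arrays, a separation seen upwards in 5.82% of all probes, while at 28 µM replicate 4 fell among the DMSO values and the other 3 arrays were above them. The means were 9.49 ± 0.16, 10.29 ± 0.43 and 10.39 ± 0.38 in that order of groups (SD, n = 4). In the limma fit the log2 fold change at 42 µM was 0.90 (SE 0.22, 95% interval 0.43 to 1.36, adjusted p = 0.0419), a 1.86-fold difference in brightness.

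At 28 µM the change of BCL2L2 was 0.79 (SE 0.22, 95% interval 0.33 to 1.26), and it did not pass in limma (adjusted p = 0.211). Without 28 µM replicate 4, the array with the small response, it was 1.01 and was called (limma, adjusted p = 0.0137), in a fit that called 719 probes. This call is not independent support, since that array was set apart on probes that include this one. The doses differed by 0.10 (95% interval −0.36 to 0.57, limma, adjusted p = 0.9995). Within the 3 slides that held both a DMSO and a 42 µM array the probe was higher on the treated array each time, by 1.07, 1.07 and 1.18. On the 3 slides with DMSO and 28 µM it was higher by 0.97 and 1.07 on slides 1 and 2, and the difference was −0.0036 on slide 4, which holds 28 µM replicate 4. RefSeq places BCL2L2 within a read-through gene that joins it to its neighbour PABPN1, and the RefSeq transcripts listed for the probe are 2 of BCL2L2 itself; whether the probe also reads the joined transcript was not tested.

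The size of this rise held while its call was close to the threshold. Over 26 other settings the log2 fold change at 42 µM lay between 0.79 and 1.07 and the adjusted p of limma between 0.0084 and 0.153, with the call kept in 14 settings and lost in 12. By design the fold change stays at 0.90 with another filter after normalization, the replicate block, only the groups compared, the intensity trend or an omitted 28 µM array. Only the p-value can move there. It was lost without any 1 of the 4 DMSO arrays (0.93, 0.87, 0.95 and 0.84 without replicates 1 to 4), without 28 µM replicate 3 (0.90) and without 42 µM replicate 1, 2 or 3 (0.90, 0.79 and 0.84). When slides were entered as fixed blocks, the change was 0.99 (limma, adjusted p = 0.0991), in a fit that called 1 probe of the whole array.

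**Figure D2:**
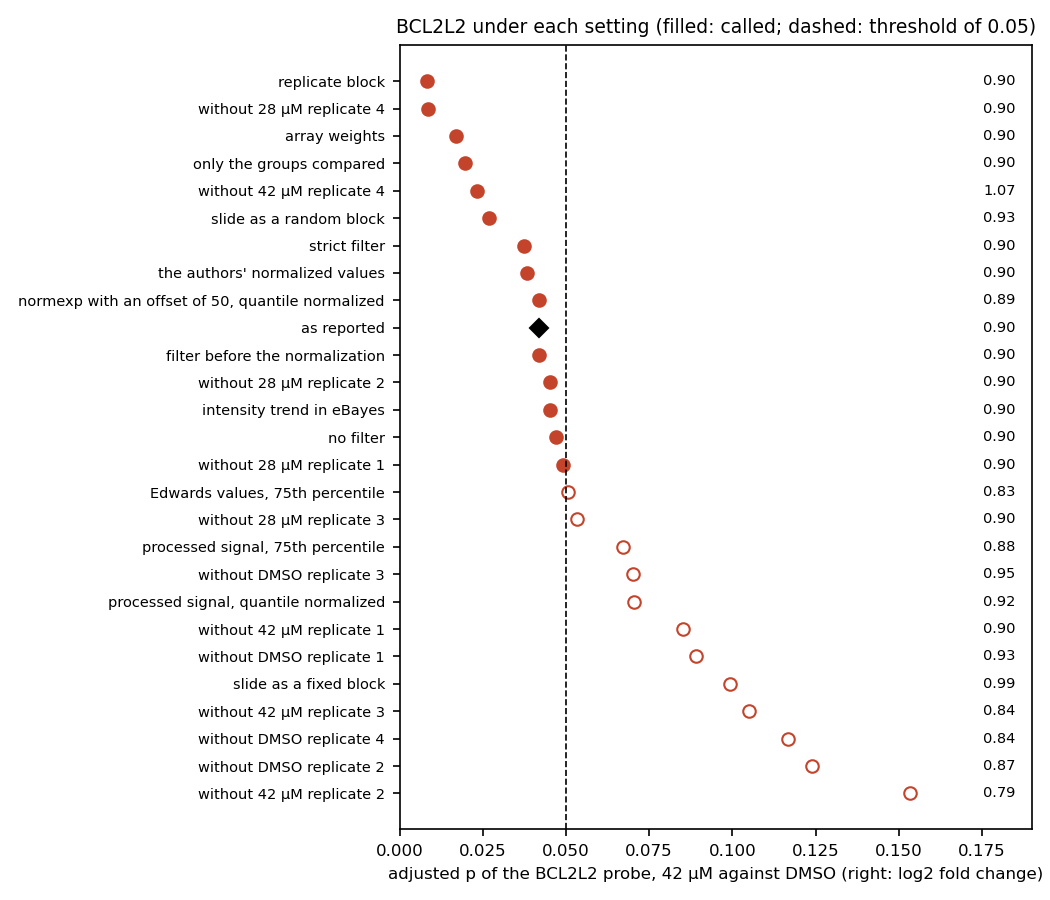
Adjusted p from limma (x axis) of the BCL2L2 probe in the comparison of 42 µM with DMSO under the reported setting (diamond) and 26 others (circles), with the log2 fold change of each at the right; filled marks are calls and the dashed line is the threshold of 0.05. The fold changes stay between 0.79 and 1.07 while the adjusted p runs from 0.0084 to 0.153.

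BAX, the cytosolic pore former that moves to mitochondria when activated, was read by 3 probes and was called with none. The probe printed on 10 spots of each array (A_23_P208706, chr19:49464904-49464963, plus strand, hg19) read 12.40, 12.24, 11.46 and 11.92 on DMSO. It read 12.39, 11.38, 11.21 and 11.58 at 28 µM and 12.26, 11.44, 11.05 and 11.93 at 42 µM. Each group thus held arrays near 12.3 and arrays near or under 11.5, and the 3 ranges overlapped almost entirely. The means were 12.01 ± 0.41, 11.64 ± 0.52 and 11.67 ± 0.53 (SD, n = 4), and the log2 fold changes −0.37 (95% interval −1.01 to 0.28) and −0.33 (−0.98 to 0.31), with adjusted p of 0.678 and 0.693 in limma. Within an array its 10 spots had a median SD of 0.18, against the SD of 0.41 over the 4 DMSO arrays, which also holds the spread between cultures.

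The other BAX probes were not called either. A_23_P346311, the probe with the G run, read 9.92, 9.62, 9.44 and 9.64 on DMSO, 9.64, 9.27, 9.18 and 9.74 at 28 µM and 9.33, 9.34, 8.74 and 9.67 at 42 µM. Its 42 µM arrays included the lowest of the 12 values but overlapped those on DMSO, and its log2 fold change was −0.39 there (95% interval −0.80 to 0.030, limma, adjusted p = 0.374) and −0.20 at 28 µM (adjusted p = 0.735). A_23_P346309 (chr19:49458144-49458203) read 11.50, 11.79, 11.26 and 11.68 on DMSO, 11.36, 11.42, 11.73 and 10.56 at 28 µM and 11.79, 11.80, 11.30 and 11.43 at 42 µM. Its lowest value came from 28 µM replicate 4, and its change at 28 µM went from −0.29 with that array to −0.055 without it; at 42 µM it was 0.022 (limma, adjusted p = 0.980). The upper ends of the 95% intervals at 42 µM were 0.31, 0.030 and 0.50 for the 3 probes, so that a rise of BAX transcripts by 1 on the log2 scale lay outside each of them.

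Within slides the differences from DMSO took both signs at either dose for the 10-spot BAX probe and for A_23_P346309. BAX A_23_P346311 took both signs at 28 µM. At 42 µM it was below DMSO on each slide that held both, with differences of −0.31, −0.10 and −0.88 on slides 2, 4 and 5. On the 10-spot probe the difference of 42 µM from DMSO was 0.34 on slide 2, −0.021 on slide 4 and −1.19 on slide 5, and that of 28 µM was −1.19, 0.47 and 0.12 on slides 1, 2 and 4. With the slide as a fixed block the changes of this BAX probe were −0.42 at 28 µM and −0.34 at 42 µM in limma (adjusted p = 0.610 and 0.702).

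**Figure D3:**
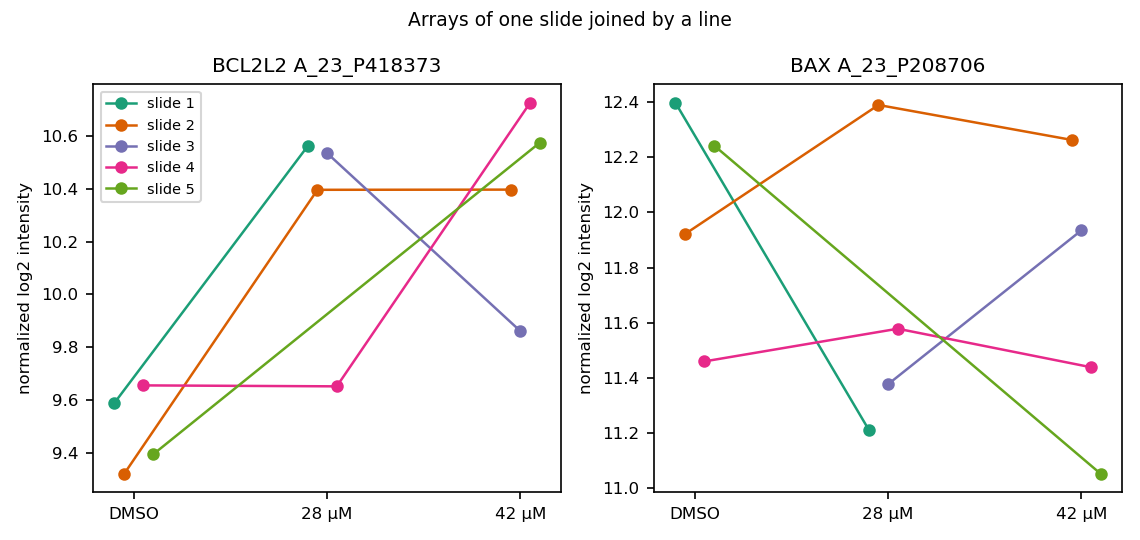
Normalized log2 intensity (y axis) of the BCL2L2 probe (left) and the 10-spot BAX probe (right) in the 3 groups, with the arrays of a slide joined by a line and coloured by slide. The BCL2L2 lines rise by 1.07 to 1.18 from DMSO to 42 µM on the 3 slides that hold both, while the BAX differences run from −1.19 to 0.34.

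BAK1, whose product sits in the outer mitochondrial membrane already before activation, was the flattest of the pore formers. Its probe (A_23_P145357, chr6:33540585-33540644, minus strand) read 9.84, 9.52, 9.60 and 9.47 on DMSO, 9.42, 9.63, 9.77 and 9.68 at 28 µM and 9.47, 9.74, 9.40 and 9.74 at 42 µM. The 12 values lay within 9.40 to 9.84 and the groups overlapped. The log2 fold changes of 0.017 and −0.020 had 95% intervals of −0.26 to 0.29 and −0.30 to 0.26, which leave out a change of 0.6 in either direction (limma, adjusted p = 0.973 and 0.969).

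BOK is a BAX relative that can act independently of the pro-survival guards and is degraded through the endoplasmic reticulum. Its probe (A_23_P253029, chr2:242513018-242513077, plus strand) read 7.30, 6.74, 7.05 and 6.59 on DMSO, 7.04, 7.40, 7.19 and 7.09 at 28 µM and 6.98, 7.90, 6.82 and 7.49 at 42 µM. The groups overlapped, with the highest value in 42 µM replicate 2. Of the 3 RefSeq transcripts that the design lists for this probe, 1 is of the gene and 2 were not found in the RefSeq table used here. The changes of 0.26 and 0.38 (95% interval at 42 µM −0.099 to 0.85) did not pass in limma (adjusted p = 0.688 and 0.475), so that a rise past the fold limit lies within the interval and was not detectable with 4 arrays per group.

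BCL2, the founding pro-survival member, had 1 probe above background. A_23_P208132 (chr18:60985142-60985201, minus strand) read 10.33, 10.25, 10.01 and 9.60 on DMSO, 9.69, 9.77, 10.03 and 9.43 at 28 µM and 9.86, 10.07, 9.35 and 9.59 at 42 µM. The 2 highest values were on DMSO and the groups overlapped. Its log2 fold changes were −0.32 (95% interval −0.74 to 0.097) and −0.33 (−0.75 to 0.088), with adjusted p of 0.570 and 0.478 in limma. The RefSeq transcript that the design lists for this probe was not found in the RefSeq table used here. The second BCL2 probe, A_23_P352266 (chr18:60790723-60790782), is printed on 10 spots and was not well above background on any of the 12 arrays, where it read 5.60 to 5.83, so that it was not tested and no fold is given.

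BCL2L1 gives rise to the pro-survival BCL-XL and, by another splice site, to the shorter BCL-XS, and the array has 2 probes for it. The 10-spot probe A_23_P210886 (chr20:30253324-30253383, minus strand) read 9.03, 8.78, 9.57 and 9.45 on DMSO, 8.19, 8.70, 9.02 and 9.76 at 28 µM and 8.18, 8.93, 9.24 and 9.35 at 42 µM. Replicate 1 of either dose gave the lowest values, these and 28 µM replicate 2 lay under every DMSO array, and the highest of the 12 was 28 µM replicate 4. The log2 fold changes were −0.29 and −0.28 (limma, adjusted p = 0.767 and 0.780), and without 28 µM replicate 4 the change at 28 µM was −0.57 (95% interval −1.20 to 0.062, adjusted p = 0.371). Its 10 spots had a median SD of 0.21 within an array, against an SD of 0.37 over the 4 DMSO arrays.

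The other BCL2L1 probe, A_24_P100130, printed above, read 6.78, 6.60, 7.12 and 7.12 on DMSO, 6.74, 6.55, 6.52 and 7.25 at 28 µM and 6.22, 6.07, 6.68 and 6.95 at 42 µM. Replicates 1 and 2 at 42 µM were below all DMSO arrays and the other 2 lay among them. This was the largest fall among the 13 probes at 42 µM, −0.42 (SE 0.22, 95% interval −0.89 to 0.041), and it was not called in limma (adjusted p = 0.385). Over the 26 other settings its size ranged from −0.95 to −0.29, with adjusted p from 0.118 to 0.661.

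**Figure D4:**
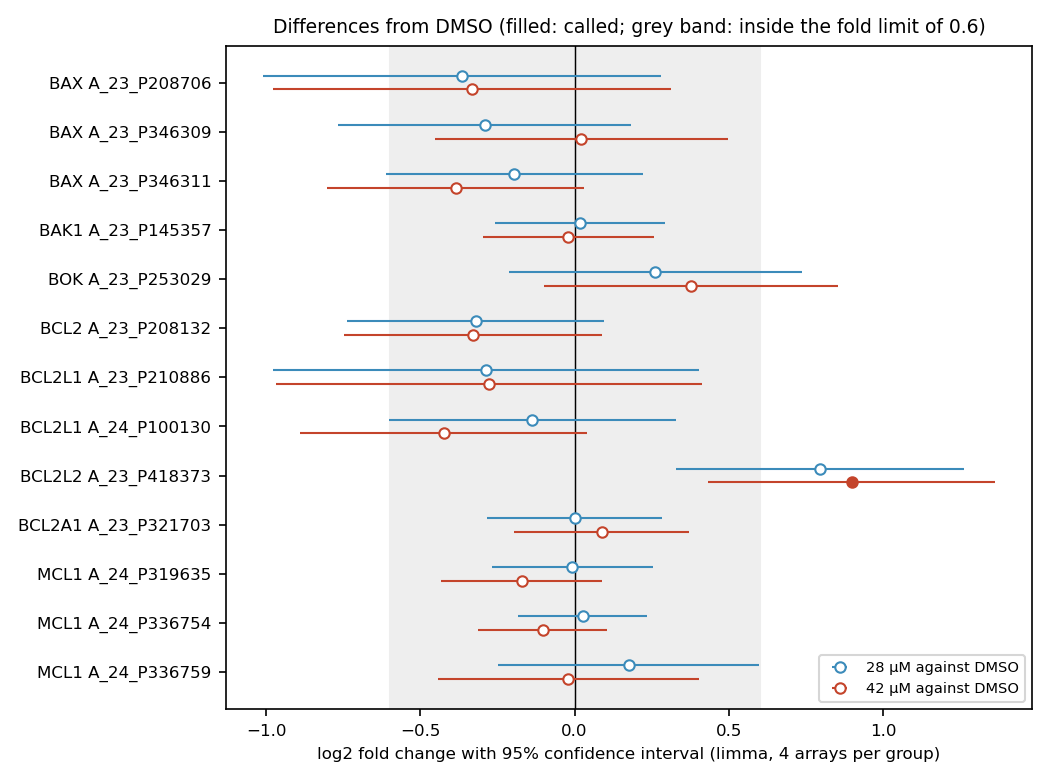
Log2 fold change from DMSO (x axis) of the 13 tested member probes at 28 µM (blue) and 42 µM (red) with 95% confidence intervals from limma; the filled point is the 1 call, open points were not called, and the grey band is the range inside the fold limit of 0.6. BCL2L2 lies at 0.79 and 0.90, and the other probes between −0.42 and 0.38.

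MCL1, a short-lived guard that binds BAK and several BH3-only proteins, was measured with 3 probes. The one printed above, A_24_P319635, read 8.13, 8.09, 8.06 and 8.22 on DMSO, 8.09, 8.08, 8.05 and 8.25 at 28 µM and 8.00, 7.64, 8.00 and 8.18 at 42 µM. A_24_P336754 (chr1:150547228-150547287, minus strand) read 13.92, 13.91, 14.05 and 13.75 on DMSO, 13.89, 13.94, 13.94 and 13.97 at 28 µM and 13.81, 13.77, 13.87 and 13.78 at 42 µM. Both overlapped between DMSO and either dose. The third, A_24_P336759 (chr1:150547622-150547681), read 9.64, 9.95, 10.27 and 10.24 on DMSO, 9.80, 10.44, 10.07 and 10.48 at 28 µM and 9.57, 10.11, 10.16 and 10.17 at 42 µM.

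The changes of the 3 MCL1 probes at 42 µM were −0.17, −0.10 and −0.020, with 95% intervals that reach no further than −0.44 and 0.40, and at 28 µM they were −0.0080, 0.026 and 0.17 (limma, adjusted p of 0.580 or more). The spread between replicates was small for A_24_P336754, with SDs of 0.12, 0.033 and 0.043. Its 42 µM arrays, 13.77 to 13.87, all lay below the 28 µM arrays, 13.89 to 13.97, a separation that 0.849% of all probes showed downwards. The difference of −0.13 (95% interval −0.34 to 0.080) was not called in limma (adjusted p = 0.9995).

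BCL2A1, a guard known mainly from blood cells and as a target of NF-kB, was not well above background on any array with the probe printed above, A_23_P152002, which read 5.61 to 5.99. A second probe that carries the name, A_23_P321703, read 11.85, 11.49, 11.45 and 11.55 on DMSO, 11.80, 11.60, 11.62 and 11.32 at 28 µM and 11.84, 11.64, 11.66 and 11.55 at 42 µM. Its groups overlapped and its changes were 0.0011 and 0.088 (limma, adjusted p = 0.999 and 0.848). The design places only 33 of its 60 bases on the gene, at chr15:80253220-80253252, and lists 3 further transcripts for it that were not found in the RefSeq table, so that which transcript this bright probe reads is uncertain.

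Across the 12 uncalled members at 42 µM, all 12 of the 95% intervals lay within 1 of 0 and 6 lay within 0.6, so that changes past the fold limit could not be set aside for the other 6. At 28 µM 11 of 13 intervals lay within 1 and 5 within 0.6. Between the doses 13 of 13 lay within 1 and 7 within 0.6, and the member that differed most was BAX A_23_P346309, 0.31 higher at 42 µM (95% interval −0.16 to 0.79, limma, adjusted p = 0.9995).

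The partners of the pore formers and guards were taken from 6 lists of 31 genes, all measured, with the brightest tested probe standing for each gene. At 42 µM 2 of the 31 were called higher and 1 lower, beside 1.57% and 1.42% of all 24251 genes by their brightest probe, and the median change of the list was 0.0079 against −0.021 over all genes. At 28 µM 0 of 31 were called, beside 0% of all genes, with a median of 0.015 against −0.024, and between the doses 0 of 31, beside 0%. Both calls upwards were among the 8 BH3-only genes (list medians −0.11 at 28 µM and 0.16 at 42 µM), and the call downwards was among the 4 caspase inhibitors (−0.11 and −0.034). None was among the 8 apoptosome and caspase genes, whose medians were 0.073 at 28 µM and 0.020 at 42 µM, the 5 other BCL2 homologues (−0.11 and 0.0052), the 3 channel genes (−0.13 and −0.050) or the 3 genes for MCL1 turnover (0.13 and 0.16). The median of the channel genes hides a wide range. By its brightest probe VDAC3 changed by −1.03 at 42 µM, which is past the fold limit, and it was not called.

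BMF, a BH3-only protein held at the cytoskeleton until stress frees it, read 8.08, 8.28, 8.48 and 8.67 on DMSO, 9.77, 10.13, 9.90 and 8.81 at 28 µM and 10.28, 11.08, 10.04 and 9.94 at 42 µM. All treated arrays were above all DMSO arrays, which 2.69% of all probes showed at 28 µM and 5.82% at 42 µM. Its change was 1.28 at 28 µM and 1.96 at 42 µM (limma, adjusted p = 0.175 and 0.0112), and without 28 µM replicate 4 the lower dose gave 1.56 and was called (adjusted p = 0.0062). At 42 µM the call of BMF was lost without DMSO replicate 2 (1.93) or 42 µM replicate 2 (1.71).

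PMAIP1, which encodes NOXA, the BH3-only protein that targets MCL1, read 8.82, 9.18, 8.67 and 8.81 on DMSO, 9.91, 10.07, 9.69 and 9.10 at 28 µM and 10.14, 10.05, 9.53 and 9.42 at 42 µM. At 42 µM all arrays were above DMSO, as on 5.82% of all probes, and at 28 µM replicate 4 was not. The changes of PMAIP1 were 0.82 and 0.91 (limma, adjusted p = 0.206 and 0.0404), and without 28 µM replicate 4 the lower dose gave 1.02 (adjusted p = 0.0167). Its call at 42 µM was lost in 8 of 12 fits that omitted an array, with changes of 0.90, 1.02, 0.85 and 0.90 for DMSO replicates 1 to 4, 0.91 for 28 µM replicate 3 and 0.80, 0.83 and 0.999 for 42 µM replicates 1 to 3. It was also lost with the deposited log2 values of the authors (0.84, limma, adjusted p = 0.0579), with the processed signal, quantile normalized (adjusted p = 0.0689) or scaled to the 75th percentile (adjusted p = 0.0673), and with a fold limit of 1.

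BIRC5, which encodes survivin, a member of the inhibitor of apoptosis family with a main role in mitosis, read 13.73, 13.78, 13.84 and 13.79 on DMSO, 12.88, 12.42, 12.83 and 13.72 at 28 µM and 12.57, 12.25, 12.70 and 12.80 at 42 µM. All treated arrays were below all DMSO arrays, 28 µM replicate 4 by little, beside 2.68% and 6.48% of all probes at the lower and the higher dose. The changes of BIRC5 were −0.82 and −1.21 (limma, adjusted p = 0.206 and 0.0159), and without 28 µM replicate 4 the lower dose gave −1.08 (adjusted p = 0.0043). At 42 µM its call was lost without replicate 2 of DMSO (−1.21) or of the 42 µM group (−1.10). In the fit with slides as fixed blocks, which called 1 probe in all, none of the calls of BMF (1.94), PMAIP1 (0.91) and BIRC5 (−1.19) at 42 µM was kept, with adjusted p of 0.0598, 0.118 and 0.0687.

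BBC3, which encodes PUMA, a BH3-only protein and p53 target, had 3 probes that disagreed. The brightest, A_23_P90189, read 12.26, 12.49, 10.95 and 12.50 on DMSO and 12.82, 11.53, 12.17 and 12.26 at 42 µM, with changes of −0.66 at 28 µM and 0.15 at 42 µM (limma, adjusted p = 0.609 and 0.934). A_23_P382775 read 10.18, 10.21, 10.06 and 10.14 on DMSO, 11.75, 11.18, 10.99 and 10.18 at 28 µM and 12.32, 11.83, 11.11 and 11.03 at 42 µM. There all 42 µM arrays were above DMSO, as on 5.82% of all probes. The change of 1.43 on A_23_P382775 was called (limma, adjusted p = 0.0288), while A_24_P305312 gave 0.15 (adjusted p = 0.703). The call of A_23_P382775 was lost in 6 of 12 fits that omitted an array, with 1.44, 1.45, 1.40 and 1.42 for DMSO replicates 1 to 4 and 1.18 and 1.34 for 42 µM replicates 1 and 2. It was also lost with the processed signal of BBC3, quantile normalized (1.45, limma, adjusted p = 0.0763) or at the 75th percentile (1.33, adjusted p = 0.0922), and with slides as fixed blocks (1.48, adjusted p = 0.0644).

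VDAC2, a channel protein of the outer membrane that binds BAK, was not called with either of its probes. Its changes were −0.13 and −0.043 with the brighter one, A_32_P41292, and 0.032 and 0.29 with A_23_P75268 (limma, adjusted p of 0.736 or more). The leukocyte, endothelial and fibroblast markers that passed the filter changed by −0.44 to 0.058 at 42 µM, and PTPRC was below background throughout; their part in the results was not tested.

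**Figure D5:**
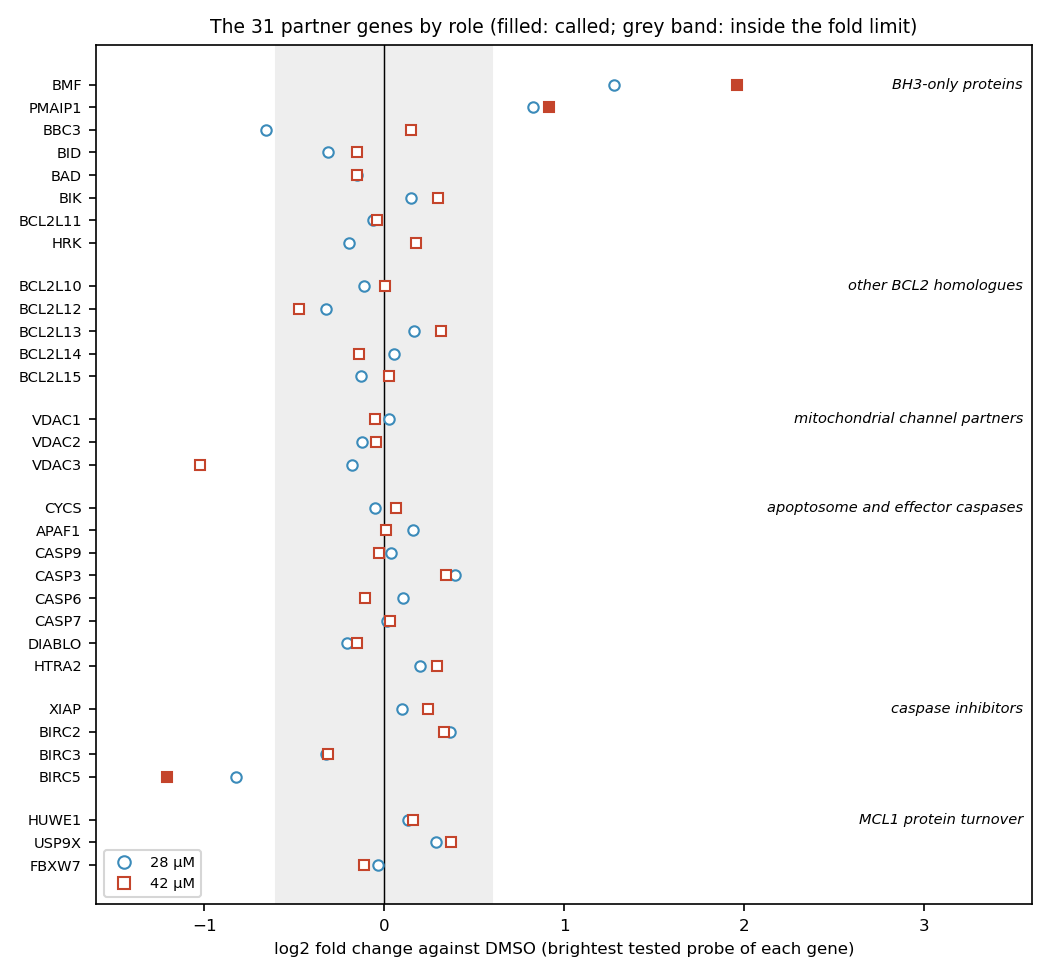
Log2 fold change from DMSO (x axis) of the 31 partner genes, by list, at 28 µM (blue circles) and 42 µM (red squares), each by its brightest tested probe; filled marks are calls and the grey band is the range inside the fold limit of 0.6. The filled marks are BMF at 1.96, PMAIP1 at 0.91 and BIRC5 at −1.21.

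The genes whose brightest probe ran most like a member over the 12 arrays were read off as a description, out of 24243 genes compared, with no test. For BCL2L2 they were LETMD1, MST1 and TTC21A, with Pearson r of 0.982, 0.978 and 0.977. For the 10-spot BAX probe, which was not called, they were CYRIB, BBIP1 and LINC01389 (0.959, 0.944 and 0.934), and for BCL2L1 A_24_P100130, the member with the largest fall, MYLIP, NTS and LYZ (0.928, 0.915 and 0.913). All points of these comparisons share the arrays, their labelling and their slides, so that array-wide differences enter both sides.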

How the data were processed

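Total RNA of 12 cultures was hybridized to Agilent 4x44K arrays of 1 colour. The authors deposited Agilent Feature Extraction 10.7.3.1 output per array, which gives for every spot a mean intensity and a median local background intensity, and a table of log2 values that the authors had background-corrected (Edwards) and quantile normalized. The version of limma behind that table is not given in the sources used here.

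Here R 4.3.3 with the data.table package (version 1.17.8) read the intensities, without controls and spots flagged as outliers. Background correction (Edwards) was done in limma 3.58.1 before log2, and quantile normalization there on the log2 values. Replicate spots were averaged. Probes were dropped where, in every group, 3 or more of the 4 arrays had them not well above background. limma's lmFit and eBayes were run on 12 arrays in 3 groups, two-sided, with Benjamini-Hochberg adjustment over 33467 probes, and a call needed an adjusted p under 0.05 and an absolute log2 fold change of 0.6 or more. The fit was first tested on simulated data. Correlation with the deposited log2 values was above 0.999 on every array. Symbols came from RefSeq accessions for 28078 probes and otherwise from the array design.

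Named are all member probes, each called partner gene, BMF, PMAIP1, BBC3 and VDAC2 in any case, and the 3 likest genes of BAX and of the members with the largest rise and fall at 42 µM. VDAC3 was named in addition after its change at 42 µM was seen. The members, lists and rules were chosen with earlier results of these data known. The alternatives were other background corrections and scalings (normexp, offset 50; the processed signal; the 75th percentile), the deposited log2 values, 3 other filters, the slide as a fixed or random block, the replicate number as a block, only the groups compared, an intensity trend, array weights, other fold limits, and each array left out in turn. The arrays' number limits the precision. The p-values measure the spread between arrays of 1 line, which holds that between slides as well as that between cultures. Plots were made with matplotlib 3.10.9 in Python 3.11.15.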

Additional observations from a re-analysis of the deposited data

Results flagged for a closer look

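One of the 39 sets of 4 arrays examined among the 13 tested probes held an array far from the others. For MCL1 A_24_P336759 at 42 µM, replicate 1 read 9.57 on the log2 scale, while the nearest of the other 3 arrays read 10.11 and the farthest 10.17, so that the gap made up 0.911 of the range, above the critical value of Dixon's test. Chance alone flags about 1 in 20 such sets. The replicate 1 arrays of DMSO and 28 µM were also the lowest of their groups on this probe, at 9.64 and 9.80.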

How the results depend on the processing

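The number of member probes called at 42 µM, 1 as reported (BCL2L2), was 0 with the processed signal, quantile normalized or scaled to the 75th percentile, with 75th-percentile scaling of the Edwards values, with the slide as a fixed block and with a log2 fold limit of 1. Leaving out 1 array at a time gave 0 to 1 at 42 µM and 0 to 1 at 28 µM, where the 1 was BCL2L2 without 28 µM replicate 4. The number of partner genes called at 42 µM, 3 as reported, was 0 with the slide as a fixed block, 2 with either form of the processed signal, with the deposited log2 values and with the limit of 1, and 4 with the 75th-percentile scaling of Edwards values, and leaving out 1 array gave 0 to 3 at 42 µM, where the 0 came from omitting replicate 2 of DMSO or of 42 µM, and 0 to 3 at 28 µM. Over all probes the 885 calls at 42 µM became 442 with the quantile-normalized processed signal, 366 with the limit of 1, 1 with the slide as a fixed block and 1366 with the replicate number as a block, and ranged from 0 to 1221 when 1 array was left out. Of 1014 values of single member probes under the alternatives, 12 lost and 1 gained a call, all of BCL2L2, and 75 turned sign, none of them a called value. Of those, 2 moved by over 1 replicate SD. The change of MCL1 A_24_P336754 at 28 µM, 0.026 and not called, turned to −0.20 with the processed signal and −0.17 with Edwards values, in both cases after 75th-percentile scaling. The cause was not tested.

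The labels give the arrays of different groups only a shared replicate number, and they were not treated as paired. Deviations from the group means of arrays with the same number correlated at −0.46 to 0.62 over 12 pairs (median 0.22, against −0.071 for 36 pairs of other numbers), with 7 of the 12 above 0.1, and 5 of 12 arrays correlated best with an array of their own number. For arrays on the same slide the median was 0.26 over 9 pairs, against −0.048 for 39 pairs on other slides. The pair at 0.62, replicate 1 of 28 µM and of 42 µM, shared both the number and the slide. With the replicate block the counts stayed at 1 member probe and 3 partner genes at 42 µM and 0 at 28 µM, with 2 probes called at 28 µM in all. The precision is limited by 4 arrays per group and, for 2 member probes, by a signal at background.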

Other observations

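HRK, a BH3-only gene chosen here after its values were seen, was not called by its brightest probe (0.18 at 42 µM). Its 3 dimmer probes were called higher at 42 µM in limma, beside 1.41% of all probes. They changed by 0.95, 0.79 and 1.06 (adjusted p = 0.0195, 0.0176 and 0.0377). On each of them all 42 µM arrays were above all DMSO arrays, as on 5.82% of all probes. On the probe A_23_P25194 the values were 6.56, 6.55, 6.28 and 6.53 on DMSO, 7.30, 7.29, 7.26 and 6.44 at 28 µM and 7.72, 7.55, 7.21 and 7.25 at 42 µM. The DMSO values were not far above the 5.60 to 5.99 of the member probes not well above background. The calls of the 3 HRK probes A_23_P25194, A_32_P156786 and A_32_P170454 were lost in 6, 4 and 7 of 12 fits that each omitted 1 array, replicate 2 of DMSO and of 42 µM among them for all 3, with changes of 0.86 to 1.03, 0.69 to 0.89 and 0.95 to 1.18. With 75th-percentile scaling of Edwards values the 3 HRK calls were lost (limma, adjusted p = 0.0610, 0.0793 and 0.0755), as they were with slides as fixed blocks (adjusted p = 0.0598, 0.0693 and 0.117). With the processed signal the HRK changes were larger, 1.76 to 1.89, and A_32_P170454 was not called (adjusted p = 0.105 and 0.0906). A fold limit of 1 left A_32_P170454 alone called.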
